A study of Danio rerio with 10 samples.

Results

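Of 18120 regions carrying trimethylation of histone H3 at lysine 27 (H3K27me3) in a zebrafish eye muscle, the lateral rectus, 785 had more of this mark at both 9 and 18 hours post-injury (hpi) than in uninjured muscle. They were chosen from the deposited H3K27me3 table as regions shorter than 30000 bp, with a mean pileup over the 3 libraries at or above the 25th percentile of the table (6.51 tags), and with a log2 change from control of at least 0.4 (1.32-fold) at both times. The change was computed as log2 of (average tag pileup + 1) at a time over (average tag pileup + 1) in control. The length and signal limits left 13322 regions, so the 785 raised regions were 5.89% of those that could have been chosen. A further 503 regions (3.78%) were lower by at least 0.4 at both times.

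H3K27me3 is placed by the Polycomb repressive complex that holds EZH2 and is found over silent developmental genes. Acetylation of the same lysine (H3K27Ac) marks active promoters and enhancers and cannot sit on the same histone tail position as methylation, while H3K4me3 marks promoters. In muscle, Polycomb silencing is known for keeping genes of other lineages off and for holding muscle genes silent in precursor cells.

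The groups were uninjured control muscle, and muscle at 9 hpi and 18 hpi after about 50% of each lateral rectus had been removed, in adults aged 4 to 18 months. The control pool held 119 fish, the 9 hpi pool 192 and the 18 hpi pool 200. The labels name wild-type fish and, in the growth protocol, also fish with the α-actin::EGFP transgene, whose promoter drives the fluorescent protein in muscle; the labels do not say which fish entered which pool. Each mark had 1 library per group, so no difference below has a replicate check or a test, and both changes of a mark share 1 control library: a low control value raises both. Values are average tag pileups over a region, as the authors deposited them. Coordinates are those of the danRer10 build, counted from 1.

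The tissue was checked against marker genes. Of 11 striated muscle markers, 9 had an H3K27Ac region near their start, and the pileups there summed to 165, 134 and 81.1 in control, 9 hpi and 18 hpi, the order used below. One of them, ryr1b, went from 10.5 to 46.4 and 18.6, and without it, a choice made after the values were seen, the sums were 154, 87.8 and 62.4. The sum of H3K4me3 pileup at 8 of the 11 was 88.8, 36.1 and 37.5. Control values at these 8 were low, from 7.84 to 18.4, and no signal limit was applied to marker regions. Over leukocyte markers, 4 of 8 had a region of each of these marks, and the sums were 29.9, 71.0 and 50.0 for H3K27Ac and 23.6, 56.8 and 77.0 for H3K4me3. Over fibroblast and tendon markers, with 4 of 6 measured, the sums were 67.8, 42.8 and 47.4 for H3K27Ac and 88.9, 61.5 and 66.0 for H3K4me3. Among them col1a1a, col1a2 and col6a3 were below control at both times in both marks. The tendon factor scxa was above it, with 3.77, 10.9 and 18.5 for H3K27Ac and 5.10, 15.2 and 11.2 for H3K4me3. H3K27Ac summed to 42.5, 16.9 and 10.8 over 2 of 5 nerve and Schwann cell markers and to 21.0, 8.96 and 6.29 over 2 of 4 erythrocyte markers. H3K4me3 went otherwise, with 37.5, 30.1 and 46.6 over 4 nerve and Schwann cell markers and 20.8, 28.1 and 13.1 over 3 erythrocyte markers. Endothelial markers summed to 46.1, 57.2 and 36.0 for H3K27Ac (4 of 5) and 42.6, 58.6 and 68.5 for H3K4me3 (5 of 5). Retina and epidermis markers gave 19.6, 28.9 and 32.8 for H3K27Ac (2 of 5) and 41.0, 30.8 and 26.6 for H3K4me3 (3 of 5). For H3K27me3 itself, 6 of the 11 striated muscle markers summed to 45.8, 40.9 and 44.2. The sums were 22.4, 27.5 and 25.5 over 2 fibroblast and tendon markers and 43.1, 46.2 and 44.9 over 3 leukocyte markers. Over 2 markers each, nerve and Schwann cell gave 35.6, 39.1 and 40.0 and retina and epidermis 45.1, 47.0 and 46.3. Endothelium (14.1, 12.7 and 15.4) and erythrocytes (18.6, 18.3 and 17.4) also had 2 each. Among these measured regions, the 1 that was a member was that of the epidermal keratin krt4 (6.22, 8.77 and 9.12). The start of the nerve marker plp1a also lay in a member (10.5, 14.3 and 15.3), but no H3K27me3 region was measured for it here. None of these measured markers was at 0 in any library. In such pooled tissue, fewer cells of a type and less of a mark per cell cannot be told apart. The part of cell makeup in the results below was not tested.

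The raised regions started low and ended somewhat above the rest. Their median H3K27me3 pileup was 6.04, 10.3 and 10.4, whereas the other 12537 regions within the limits had medians of 8.90, 8.59 and 8.50. Their median log2 changes were 0.62 and 0.65 at the later times, and the highest values were 2.18 and 1.84. These values are those the rule used and are given as a description. The level at 18 hpi was close to that at 9 hpi: the median log2 ratio of 18 to 9 hpi was 0.009, and 641 of the 785 (81.7%) had averages within 1.2-fold of each other at these times, as had 85.02% of the other regions. The maximum pileup was above control at both times in 769 of 785 (98.0%), as it was in 41.0% of the other regions, and its median was 16 in control and 28 at each time after injury. It comes from the same libraries as the average that chose the regions, so nothing is read from it.

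**Figure D1:**
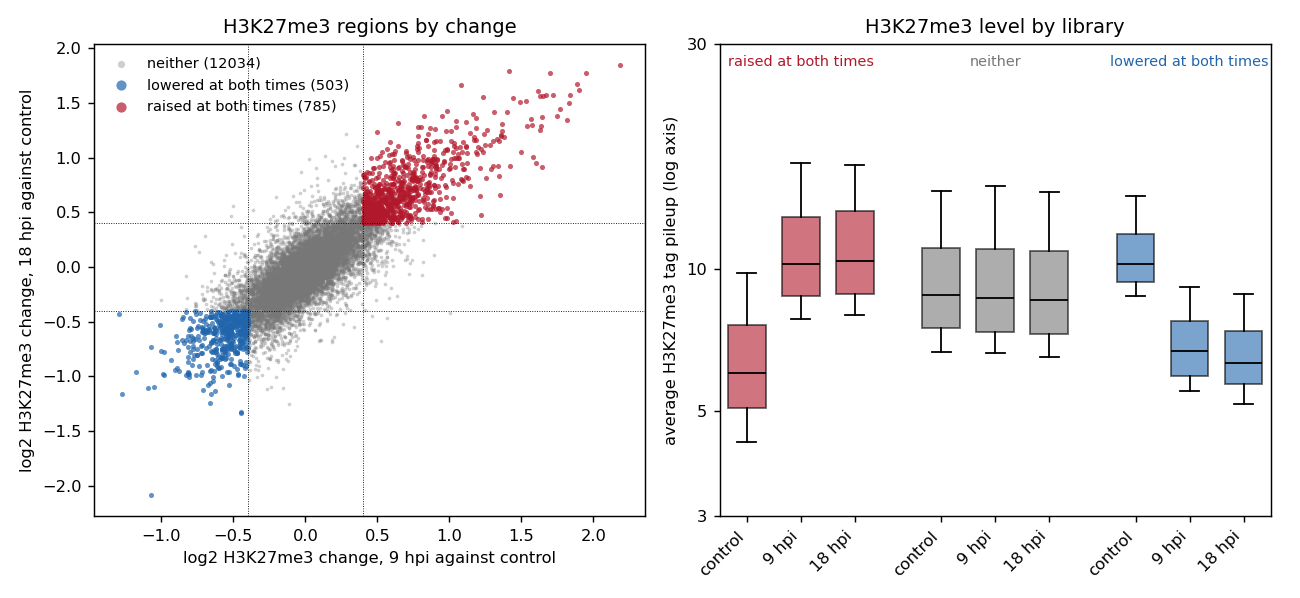
Left, log2 H3K27me3 change at 9 hpi (x) and 18 hpi (y) of the 13322 regions within the limits, with dotted lines at the threshold of 0.4. Right, average H3K27me3 pileup (log axis) in each library for the 3 sets, as boxes of quartiles with the median and whiskers from the 10th to the 90th percentile; the raised regions have a median of 6.04 in control and 10.3 and 10.4 after injury.

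The authors' calls of enriched intervals gave 283 of the 785 regions (36.1%) an interval in all 3 libraries, against 70.1% of the other regions. In 361 (46.0%) an interval was called at 9 and 18 hpi and not in control, a pattern seen in 4.14% of the others. The remaining 65 had a call at 9 hpi alone (8.28%, against 3.69% of the others) and 76 at 18 hpi alone (9.68% against 4.20%). These calls come from the same libraries as the averages that chose the regions, so nothing is read from the differences. The members nearest to the threshold were a region without an assigned gene on chromosome 5 (48663001 to 48664400), with pileups of 6.18, 8.48 and 9.86, and one in habp2 (6.81, 10.4 and 9.31). The nearest regions that missed it lay in slc18a2 (7.48, 14.8 and 10.2) and at LOC100004358 (13.4, 18.2 and 18.1). Of the regions within the limits, 368 passed the threshold at 9 hpi alone and 484 at 18 hpi alone.

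The raised regions were shorter than the others and lay more often inside gene bodies. Their median length was 4799 bp in the files' length column, against 6399 bp. With the regions split by length into 5 groups of like size, 9.61% of the shortest group were raised and 4.54% of the longest. The middle lay in a gene body with no gene start within 1000 bp in 354 members (45.1%), against 33.7% of the other regions and 36.0% of the lowered ones. A gene start lay within 1000 bp of the middle in 150 members (19.1%; exact 95% binomial interval for counting error alone, 16.4% to 22.0%), against 20.0% of the others. The region covered a gene start in 324 members (41.3%), against 48.3% of the others and 23.3% of the lowered regions, and these 324 held the starts of 374 genes. A CpG island, a stretch rich in CG pairs common at vertebrate promoters, lay in 20.6% of members, 20.8% of the others and 9.54% of the lowered regions. Longer regions can more easily cover a gene start or hold an island, and the lowered regions had a median length of 3599 bp. These shares were not compared at like length. No gene was assigned to 108 members (13.8%).

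Members lay unevenly along the chromosomes. Chromosome 19 held 55 of its 563 regions within the limits as members (9.77%) and chromosome 21 held 41 of 451 (9.09%), while chromosome 18 held 15 of 468 (3.21%). On chromosome 21, 21 of the 41 lay at the ctif to smad7 locus described below, so much of that share comes from 1 locus. Of the 419 members with an adjacent region within the limits at most 10000 bp away, 213 (50.8%) had a member there. Of the 5709 other regions with such a neighbour, 268 (4.69%) did. With this gap, 115 members formed 28 runs of 3 to 18 members, 54 pairs held 108, and 562 stood alone. Other regions could lie between the members of a run or pair. The gap and the run size were chosen after the values were seen. Neighbouring members may be pieces of 1 domain and are not independent of each other. Of the 72 members that were at least 2-fold higher at both times, 31 lay in runs, as did 115 of all 785 members. A gene start lay within 1000 bp in 6 of the 72, and in 19.1% of all members. The 72 are ranked on values the rule used, and 1 run can supply several of them, so these counts are a description.

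The longest run stretched over 120.2 kb of chromosome 21 (3144401 to 3264600) with 18 members among its 20 H3K27me3 regions. It began in the body of ctif, a factor of cap-dependent translation, went on through a stretch without an assigned gene, and ended downstream of the start of smad7, the inhibitory Smad that blocks transforming growth factor beta signalling. Its length-weighted pileup was 6.60, 17.5 and 15.5. The member with the largest change among the 785 lay here, in ctif at 3157801 to 3164400, with 6.29, 32.1 and 25.2 tags. All 8 members assigned to ctif were below 10 tags in control and above it at both later times. A separate run of 3 members followed over smad7 (3280201 to 3311800). Its member that covers the gene's start (3290401 to 3302200) had 8.43, 20.6 and 19.2 tags, while the H3K27Ac pileup there was 30.6, 36.5 and 27.7 and the H3K4me3 pileup 58.2, 56.7 and 46.0. Within 200 kb of the middle of the longest run, 26 of 28 H3K27me3 regions were above 0 at both times, 21 of them members. The members were above 0 by the rule, and the window was placed on a run of them, so nothing is read from this count.

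On chromosome 9, 3 members lay in the body of nckap1, a subunit of the WAVE complex that drives actin branching, and spanned 38.8 kb (44958601 to 44997400). Their pileup was 3.84, 14.4 and 13.4, and 5 H3K27Ac regions in the same span went from 9.34 to 5.31 and 5.20. No signal limit was applied to the H3K27Ac and H3K4me3 regions of runs. The next run, of 6 members over 50.4 kb (45020801 to 45071200), covered frzb, a secreted antagonist of Wnt ligands, and reached the downstream side of dnajc10, a co-chaperone of the endoplasmic reticulum. It had 7.50, 15.4 and 14.8 tags. The member over the start of frzb (45028001 to 45034800) had 12.9, 20.1 and 21.7 tags of H3K27me3, and the H3K4me3 region inside it had 22.1, 11.7 and 8.27. H3K27Ac had no region there.

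**Figure D2:**
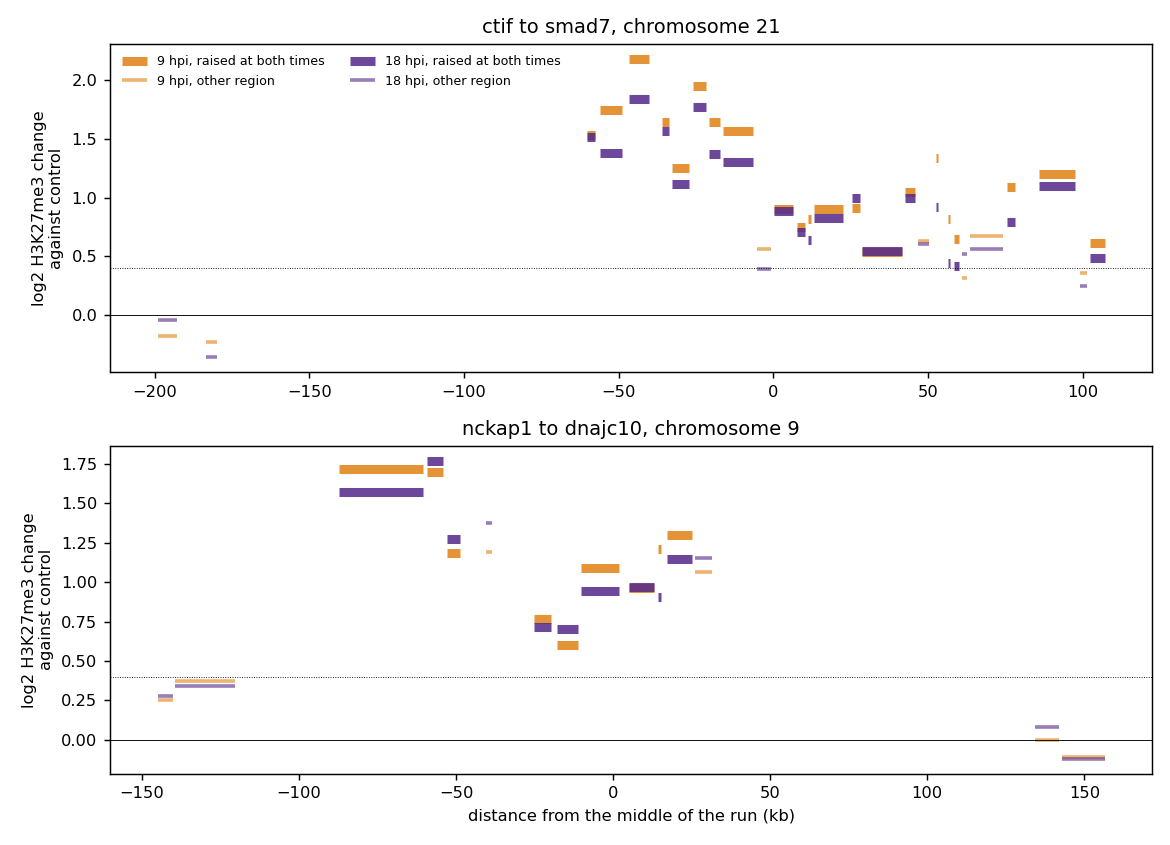
Log2 H3K27me3 change against control of every H3K27me3 region (horizontal bar, drawn to its length) by distance from the middle of the run in kb, for the ctif to smad7 locus and the nckap1 to dnajc10 locus; thick bars are raised at both times, and the dotted line is the threshold of 0.4. In the upper panel 21 of 28 regions are raised at both times, and in the lower panel 9 of 15.

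Other runs lay in single genes. The 3 members in slc23a2, a vitamin C transporter, spanned 19.8 kb of chromosome 8 with 2.32, 9.93 and 8.28 tags, and the 2 H3K27Ac regions there had 20.8, 29.5 and 23.1. The 4 members in lrp1, an endocytic receptor, spanned 76.8 kb of chromosome 23 with 5.80, 12.3 and 11.8 tags, and H3K4me3 at its 1 overlapping region was 37.1, 37.3 and 37.4. The 4 members in cdc42bpb, a kinase of the cytoskeleton, had 6.27, 14.4 and 15.3 tags over 48 kb of chromosome 20. A run of 7 members on chromosome 19 (47438401 to 47544200), with 8.30, 16.0 and 15.4 tags, and one of 6 on chromosome 1 (1337801 to 1377600), with 7.59, 15.1 and 15.1, had no assigned gene. In the chromosome 1 run the 4 H3K27Ac regions went the same way as H3K27me3, from 5.69 to 9.17 and 9.96.

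Near gene starts, the largest changes were at genes of varied function. Among the 12 members with the largest smaller change and a gene start within 5000 bp, 6 lay nearest to genes known only by a locus or clone name. LOC103911314 on chromosome 7 (2447201 to 2452000) came first, with 4.39, 17.4 and 13.7 tags. A member at the starts of LOC572093 and trmt1, a tRNA methyltransferase, on chromosome 11 (30969001 to 30972000) had 6.59, 19.3 and 25.3 tags of H3K27me3. The H3K4me3 region over it had 75.8, 43.7 and 36.9 tags and the H3K27Ac region 18.9, 14.5 and 11.7, so both other marks were lower at both times.

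Several of these genes have known roles in muscle or in rhythm. The creatine transporter slc6a8, which supplies muscle with creatine, had 10.1, 22.0 and 26.0 tags of H3K27me3 over its start on chromosome 8 (9080001 to 9081400). The H3K27Ac pileup there was 21.5, 34.9 and 20.0, higher at 9 hpi alone. A member in bag3, a co-chaperone needed for muscle upkeep, had 6.12, 14.4 and 14.4 tags, while H3K27Ac was 40.2, 43.8 and 27.9. The start of dbpa, a transcription factor of the circadian output, had 5.21, 12.9 and 15.4 tags of H3K27me3 on chromosome 19 (10276001 to 10277400). There H3K4me3 was 56.0, 38.7 and 32.2 and H3K27Ac 21.5, 14.1 and 18.5, both below control at both times. An H3K27me3 interval was called at dbpa at 18 hpi alone. A member 1291 bp into nudt6 and the next one, which covers the start of fgf2, a growth factor that acts on muscle precursors, form a pair on chromosome 14. The member at fgf2 (536801 to 552200) had 5.83, 16.8 and 14.6 tags of H3K27me3. Its strongest overlapping H3K27Ac region had 19.2, 11.95 and 11.7 tags and H3K4me3 had 32.6, 19.9 and 18.5. The 2 genes lie close together, and a region cannot be given to 1 of them. The members at pik3c2b, a lipid kinase, and tnfrsfa, a tumour necrosis factor receptor, had 4.86, 12.2 and 12.3 tags and 4.29, 12.6 and 11.3 tags. In both, H3K27Ac was higher than control at 9 hpi and lower at 18 hpi. At pik3c2b an H3K27me3 interval was called at 9 hpi alone.

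The members with the strongest mark near gene starts included genes already covered by H3K27me3 in control. The highest was over sall3b, a zinc finger factor of limb and nerve development, on chromosome 19 (22473401 to 22486400), with 31.0, 44.5 and 44.5 tags. Its H3K4me3 was 14.1, 15.1 and 15.7, and it had no H3K27Ac region. Igf2bp3, an RNA-binding protein of embryonic tissue, had 23.4, 37.1 and 35.7 tags of H3K27me3, while H3K27Ac was 10.2, 14.6 and 14.0 and H3K4me3 43.3, 35.6 and 33.4. At ahdc1, a protein with DNA-binding AT-hook motifs, H3K27me3 was 23.0, 35.3 and 32.6 and H3K4me3 72.5, 46.1 and 36.5. The members at plk3, a stress-response kinase (15.3, 30.2 and 22.1), and wtip, a LIM-domain protein of cell junctions (15.6, 23.9 and 25.6), were likewise called in all 3 libraries. At plk3 the value at 18 hpi lay between those of control and 9 hpi.

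The other 2 marks come from libraries that the rule did not use, made from tissue of the same 3 times. Of the 785 members, 403 (51.3%) were overlapped by a called H3K27Ac interval in control, 421 (53.6%) at 9 hpi and 395 (50.3%) at 18 hpi. For the other regions the shares were 41.3%, 42.9% and 39.0%, and for the lowered ones 33.6%, 33.6% and 31.2%. H3K4me3 intervals overlapped 361 members (46.0%) in control, 352 (44.8%) at 9 hpi and 361 (46.0%) at 18 hpi, against 41.6%, 42.5% and 41.8% of the others. The number of members with such an interval thus changed little after injury: 348 had an H3K27Ac interval in all 3 libraries (44.3%, against 31.7% of the others) and 332 an H3K4me3 interval (42.3% against 37.3%). In 26 an H3K27Ac interval was called in control alone (3.31% against 5.07%) and in 24 at both later times and not in control (3.06% against 4.81%). Overlap over a region of several kb does not show that 2 marks lie on the same nucleosome or in the same cell.

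Most H3K4me3 regions over members were below control after injury. Of H3K4me3 regions at or above the 25th percentile of signal, 344 overlapped a member, and their median pileup was 35.8, 29.2 and 29.7. The median log2 changes were -0.24 and -0.25 at the later times, against -0.06 and -0.08 at the 4863 H3K4me3 regions over other H3K27me3 regions and 0.02 and 0.03 at the 131 over lowered ones. Values below 0 made up 82.6% and 75.3% of the regions over members, and 59.2% and 57.4% of those over other regions. At both times lower by at least 0.4 were 70 regions over members (20.3%), against 11.1% over the others and 7.21% of all H3K4me3 regions; 10 (2.91%) were higher by as much, where 4.57% of all regions were. Changes of 2-fold or more were few. At 9 hpi 8 regions over members were lower (2.33%, against 1.95% over the others and 1.49% of all). Higher by as much were 0 (against 1.46% and 1.15%). At 18 hpi 7 were lower (2.03%, against 3.11% and 1.83%) and 3 higher (0.872%, against 2.06% and 1.93%). The share with a 2-fold loss at 18 hpi thus lay below that over the others and above that of all regions. The counts are small and nothing is read from them. Over the 294 regions with an annotated promoter the medians were -0.23 and -0.26, against -0.06 and -0.07 for the others. Over the 50 without one they were -0.26 and -0.19, against -0.11 and -0.14, so the distance at 18 hpi was small there. All H3K4me3 regions kept were split by signal into 5 groups of like size, which held 54 to 77 of the regions over members. The medians over members ran from -0.34 to -0.21 at 9 hpi and from -0.41 to -0.13 at 18 hpi. Over the others they ran from -0.07 to -0.03 and from -0.22 to -0.02.

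The median H3K27Ac change at 9 hpi was near 0 over members and above 0 over other regions. Over all 31189 H3K27Ac regions kept, the median log2 change was 0.23 at the earlier time and -0.16 at the later, and the values below are to be read against this shift. The 466 H3K27Ac regions over members had medians of 0.02 and -0.22. Centred on all regions they become -0.20 and -0.07, so the sign at 9 hpi turns with the scaling. On the maximum pileup the median over members at 9 hpi was 0.26, and its distance to the other regions was -0.31. The 6530 H3K27Ac regions over other H3K27me3 regions had medians of 0.34 and -0.07, and the 198 over lowered ones 0.45 and -0.01. A gain of 2-fold or more at 9 hpi was found in 27 regions over members (5.79%), against 15.2% over the others and 13.6% of all. A loss of 2-fold or more at 9 hpi was found in 21 (4.51%; 4.79% over the others and 8.52% of all) and at 18 hpi in 48 (10.3%; 9.16% and 13.2%), while 22 were higher at 18 hpi (4.72%; 7.06% and 6.57%). With the threshold of 0.4 at both times, 108 were lower (23.2%; 16.1% over the others, 21.4% of all) and 66 higher (14.2%; 23.4% and 20.0%). Regions with an annotated promoter had medians of 0.02 and -0.30 over members and 0.38 and -0.07 over the others. Those without one had 0.04 and -0.11 over members and 0.12 and -0.12 over the others, so at 18 hpi these were nearly level. All H3K27Ac regions kept were split by signal into 5 groups of like size. From weakest to strongest, these held 48, 61, 102, 155 and 100 of the regions over members. In the same order, the medians over members at 9 hpi were -0.19, -0.01, -0.09, 0.01 and 0.25, each below the -0.01, 0.08, 0.25, 0.39 and 0.54 over the others. At 18 hpi they were -0.24, -0.05, -0.38, -0.28 and -0.14, against -0.16, -0.13, -0.05, -0.05 and -0.06, so in the second group the median over members was the higher one.

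In control, H3K27Ac and H3K4me3 were stronger over members than over other H3K27me3 regions, with medians of 17.2 against 14.6 for H3K27Ac and 35.8 against 27.5 for H3K4me3. At 18 hpi the medians lay closer, at 13.8 and 13.3 for H3K27Ac and 29.7 and 26.3 for H3K4me3. One H3K27Ac or H3K4me3 region can overlap more than 1 member.

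**Figure D3:**
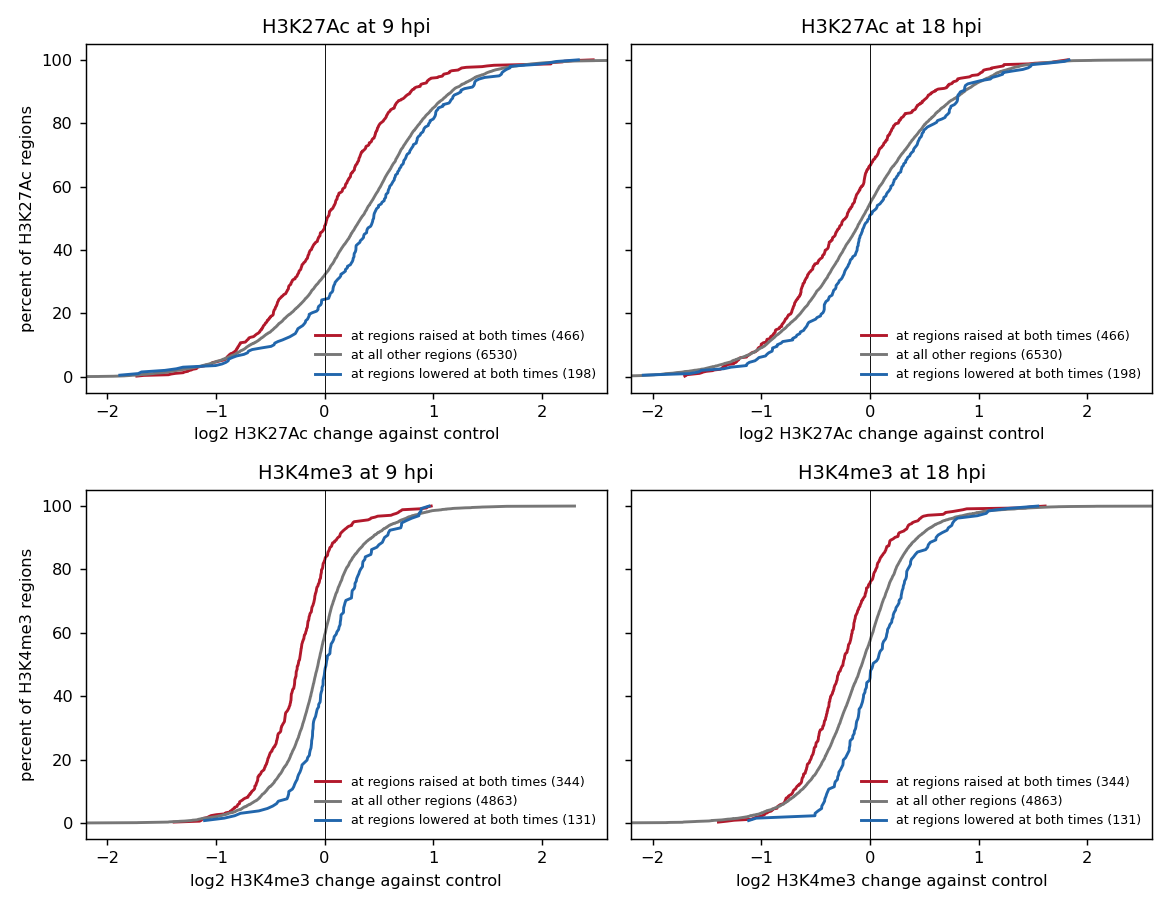
Cumulative percent of H3K27Ac (top) and H3K4me3 (bottom) regions by log2 change against control at 9 hpi (left) and 18 hpi (right), for regions over raised, all other and lowered H3K27me3 regions; the x axis is cut at -2.2 and 2.6. The curve over raised regions lies to the left of that over other regions through the middle of all 4 panels, with medians of 0.02 against 0.34 for H3K27Ac and -0.24 against -0.06 for H3K4me3 at 9 hpi.

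Both other marks had a kept region at 309 members. In 30 of these (9.71%) the strongest region of each mark was lower by at least 0.4 at both times, against 176 of 4042 other regions (4.35%), 0 of 114 lowered ones and 4.73% of all regions within the limits. Both were higher in 3 (0.971%, against 3.36% of the other regions). A further 30 had only H3K4me3 lower (9.71% against 5.10%) and 35 only H3K27Ac lower (11.3% against 6.01%). H3K27Ac was higher in 34 (11.0% against 21.3%) and H3K4me3 in 7 (2.27% against 5.57%). This rule was chosen after the values were seen, and the differences between the sets were not tested.

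Single genes among the 30 regions are described here as examples, picked after their values were seen, and no theme is read from them. The summed pileups at fibroblast, muscle and leukocyte markers, given above, differed between the libraries, and the part of cell makeup in these values was not tested. The start of fbln5, a fibulin that organises elastic fibres, on chromosome 13 (33036601 to 33043200) had 8.22, 12.4 and 13.4 tags of H3K27me3, 17.7, 6.86 and 4.80 of H3K27Ac and 23.1, 11.1 and 9.14 of H3K4me3. Each mark kept its own direction from control to 9 hpi and on to 18 hpi, upward for H3K27me3 and downward for H3K27Ac and H3K4me3. At fbln2, another fibulin, H3K27me3 was 7.13, 11.3 and 9.77, H3K27Ac 15.8, 7.19 and 7.40 and H3K4me3 19.8, 8.49 and 8.76. At htra1b, a secreted serine protease, H3K27me3 was 5.93, 10.4 and 9.38, H3K27Ac 21.1, 7.99 and 8.59 and H3K4me3 35.4, 20.7 and 21.1. The start of clu, the secreted chaperone clusterin, on chromosome 20 (39368401 to 39372400) held the member at which H3K27Ac was lowered most by the mean of the 2 log2 changes: 23.3, 6.33 and 8.50, beside 5.55, 8.78 and 8.65 of H3K27me3 and 18.9, 8.64 and 11.1 of H3K4me3. With a pseudocount of 5, the H3K27me3 change fell below 0.4 at both times at clu (0.39 and 0.37) and at 18 hpi at fbln2 (0.28). It also did so, narrowly, at 9 hpi at fbln5 and at 18 hpi at htra1b. Of the genes described next, igfbp5a fell below 0.4 at both times and mybpha at 9 hpi.

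The group also held fgf2, described above, tgfb3 and igfbp5a, a binding protein of insulin-like growth factors. The start of tgfb3, a transforming growth factor beta ligand, on chromosome 17 (52020001 to 52021200) had 8.55, 13.1 and 14.7 tags of H3K27me3, 21.0, 14.5 and 11.5 of H3K27Ac and 39.5, 22.8 and 24.8 of H3K4me3. An H3K27me3 interval was called at tgfb3 at 18 hpi alone. At igfbp5a H3K27me3 was 6.06, 9.14 and 9.14, H3K27Ac 17.6, 10.3 and 9.04 and H3K4me3 46.2, 26.4 and 21.5.

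Further examples were pygmb, the muscle glycogen phosphorylase, mybpha, a myosin-binding protein, and eya4, a transcription cofactor of myogenesis. Pygmb had 5.54, 9.81 and 9.72 tags of H3K27me3, 23.8, 12.3 and 9.84 of H3K27Ac and 47.7, 26.9 and 23.9 of H3K4me3. At mybpha H3K27me3 was 8.37, 11.9 and 15.3, H3K27Ac 13.3, 8.88 and 6.11 and H3K4me3 17.8, 11.0 and 10.8. The start of eya4 on chromosome 23 (31578201 to 31588400) had 13.2, 19.5 and 19.9 tags of H3K27me3, 15.5, 7.90 and 5.60 of H3K27Ac, and, by the mean of the 2 log2 changes, the largest loss of H3K4me3 at a member, 40.7, 17.8 and 14.8.

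The group also held regions inside the gene aadac, an esterase (10.5, 16.6 and 19.5 tags of H3K27me3 and 31.6, 14.3 and 9.11 of H3K27Ac), and at usp13, a deubiquitinase, and ptk2ab, a focal adhesion kinase. Those at the ugt1b cluster cannot be given to 1 gene, since its glucuronosyltransferase genes overlap.

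**Figure D4:**
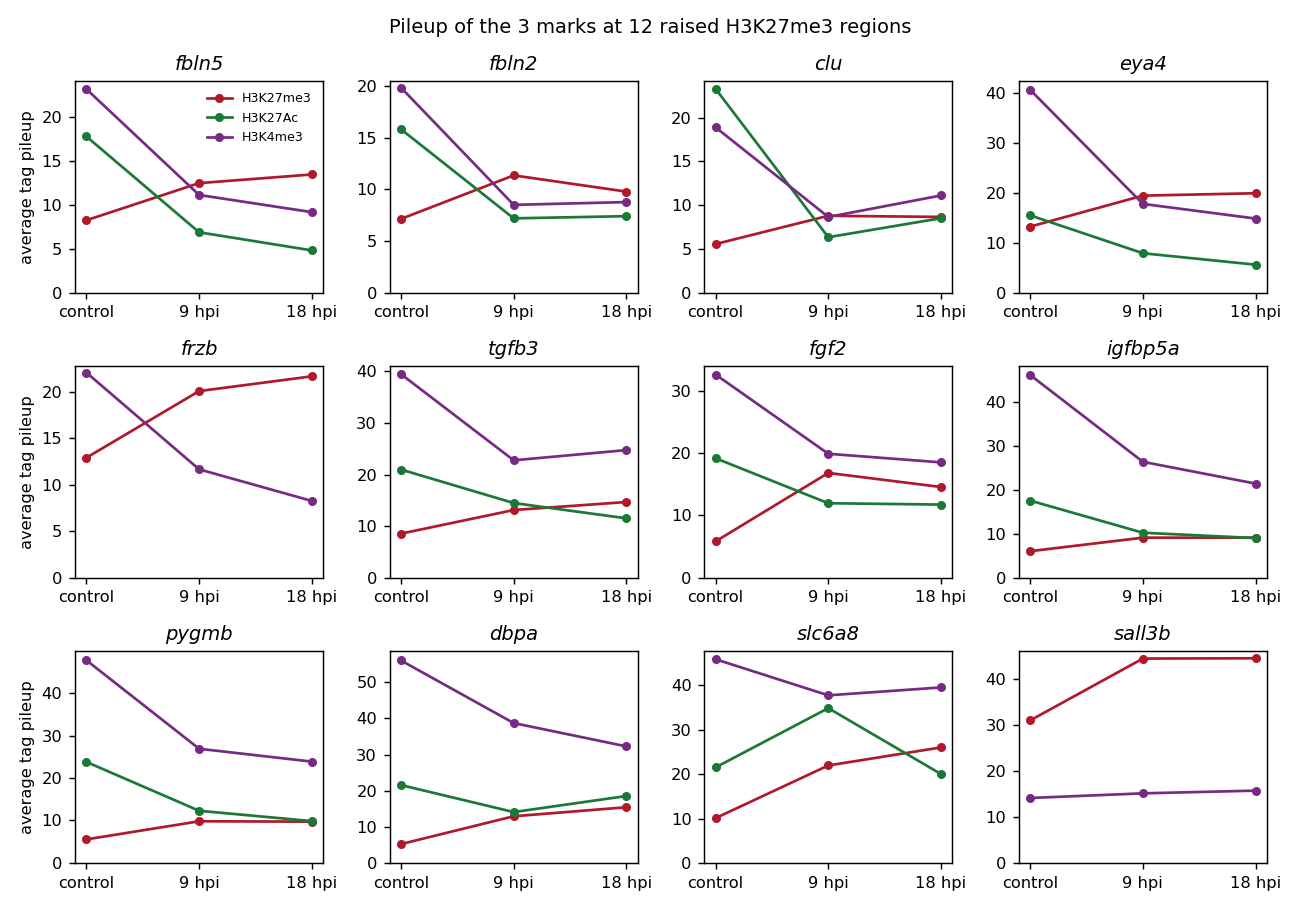
Average tag pileup (y, from 0) of H3K27me3, H3K27Ac and H3K4me3 in control, at 9 hpi and at 18 hpi (x) at 12 raised regions, with the strongest overlapping region of each other mark; each point is 1 library. Frzb and sall3b have no H3K27Ac region, and in fbln5 H3K27me3 goes from 8.22 to 13.4 while H3K4me3 goes from 23.1 to 9.14.

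At other members H3K27Ac was higher after injury although H3K27me3 was too. In srgap2b on chromosome 4 (9277801 to 9285600), H3K27me3 was 8.80, 15.7 and 15.0, and an H3K27Ac region inside it went from 2.67 to 19.4 and 11.2. A member on chromosome 1 (13564601 to 13584800) holds the start of cxcl8a, the neutrophil chemokine interleukin 8. Its H3K27me3 was 6.93, 9.71 and 9.58, close to the threshold, while an H3K27Ac region in it had 3.46, 21.1 and 9.44. The member is 20200 bp long, and the H3K27Ac region (13573201 to 13575400) covers a small part of it. The middle of that H3K27Ac region lies 7653 bp from the start of cxcl8a, and the middle of the member lies in another gene, LOC100334568. The H3K4me3 region in the member (13566601 to 13567400) had 14.3, 13.4 and 15.8 tags. For H3K4me3, the largest gain by the mean of the 2 log2 changes lay in a member of 22400 bp over the starts of pcdh20, a protocadherin, and plp1a, a myelin protein (14255401 to 14277800 of chromosome 14). H3K27me3 there was 10.5, 14.3 and 15.3. The H3K4me3 region (14255601 to 14261600) had 8.34, 17.0 and 27.6 tags and lay nearest to the start of another gene, si:dkey-27i16.2, while the H3K4me3 region at plp1a itself had 9.52, 6.11 and 13.1. The maximum H3K27me3 pileup of that member was 60, 61 and 55, which at 18 hpi lies below control. The member between ntn1a and pik3r5 on chromosome 6 (23450801 to 23463800) held opposite changes: H3K27me3 was 17.7, 24.7 and 23.8, H3K4me3 at its end towards ntn1a, a guidance cue for axons, was 49.7, 30.5 and 31.6, and at its other end, towards the kinase subunit gene pik3r5, 6.74, 14.3 and 20.5.

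Gene lists gave few members. Of 10078 genes with an H3K27me3 region within 5000 bp of their start, 419 (4.16%) had a member as their nearest region. To be a member such a region had to lie within the length and signal limits, which held for 8501 of the genes, for 1 of the 8 HOX genes with a region and for 63 of 68 other homeobox genes. None of the 8 HOX genes was among the 419, nor any of the other homeobox genes, whose median log2 changes were -0.01 at each time. Factors of the PAX, SOX, T-box and forkhead families gave 1 of 59 (sox11b) and bHLH, GATA and zinc finger developmental factors 2 of 58 (olig4 and sall3b). The myogenic regulators gave 1 of 20 (eya4), while sarcomere genes gave 0 of 20, genes of calcium handling 0 of 13 and oxidative phosphorylation 0 of 6. Signalling lists gave 1 of 34 for Wnt (frzb), 1 of 44 for fibroblast growth factor, hedgehog and Notch (fgf14) and 1 of 31 for transforming growth factor beta and bone morphogenetic proteins (tgfb3). Axon guidance and adhesion genes gave 4 of 40, or 10%: ntn1a, the ephrin ligand efnb2b, N-cadherin (cdh2) and the protocadherin pcdh18a. Matrix and fibroblast genes gave 1 of 27 (mmp2), leukocyte and inflammation genes 0 of 17, neuronal genes 0 of 46 and Polycomb and H3K27 enzymes 0 of 12. Immediate early and stress factors gave 1 of 16 (mycb), beside 3 lowered (fosb, fosl2 and junba), and clock genes 1 of 7 (dbpa), beside 1 lowered (per1a). With 0 to 4 members a list, these counts cannot be told from the share over all genes.

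Counting every list gene whose start fell inside a member, whether or not another region was nearer, gave 20 genes. Members held the starts of 374 genes of any kind. No share over all genes was computed for this count, so nothing is read from it, and the genes below are examples. Sox11b, a SOX factor of progenitors, had 5.58, 11.0 and 10.8 tags of H3K27me3 with H3K4me3 of 102, 95.01 and 75.8. Cdh2, the cadherin of muscle and nerve, had 10.9, 20.4 and 17.4 with H3K27Ac of 22.1, 32.7 and 29.6. Pcdh18a had 9.21, 13.5 and 14.7 with H3K4me3 of 38.0, 24.9 and 19.4. Efnb2b had 15.0, 20.8 and 20.3 with H3K27Ac of 13.3, 10.3 and 7.63.

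The matrix metalloproteinase mmp2 had 5.85, 8.87 and 8.52 tags of H3K27me3 with H3K4me3 of 23.9, 13.7 and 16.0, and mmp14a, a membrane-bound protease that activates it, 8.52, 11.7 and 12.7 with H3K27Ac of 21.0, 35.4 and 17.8. The nuclear receptor nr1d1, a repressor in the circadian clock, had 16.1, 23.7 and 22.4 with H3K4me3 of 38.6, 30.9 and 27.7. Fgf14, a modulator of sodium channels, had 15.3, 21.1 and 22.0. The member at mycb, a Myc factor, had 6.61, 10.6 and 9.46 with H3K27Ac of 37.1, 59.1 and 40.6. At these genes H3K27me3 was higher after injury by the rule.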

How the data were processed

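Chromatin immunoprecipitation of 3 histone marks at 3 times gave 9 libraries; the input library was not analysed here. The submitters' processing notes list SICER 12.1, MACS2 2.1.0 and BWA beside the build danRer10, with no roles given. The authors deposited merged regions per mark with the average and maximum tag pileup of each library (signal), and interval lists per library, called on a 200 bp grid. The normalization and the depth of the libraries are not given in the sources used here, so precision from depth is unknown. Intervals of shares cover counting error alone. The labels give 1 pool of fish per time.

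From these, log2 changes were computed with a pseudocount of 1, which understates changes of weak regions. In medians and shares over sets, H3K27Ac and H3K4me3 regions below the 25th percentile of mean signal were left out (7.78 and 12.2 tags). Values of runs and of marker genes used every region, also weaker ones. Regions were matched by an overlap of at least 1 bp, and distances to gene starts, from the authors' tables, run from the middle of a region. The strongest overlapping region of a mark was used for single members. Members, gene lists and alternatives were chosen with earlier results of these data known. Genes named are the 12 members near a gene start with the largest smaller change, the 8 with the highest pileup, the 6 and 6 (H3K27Ac) and 4 and 4 (H3K4me3) with the largest loss and gain, of which a part is printed, list genes, the members next to the threshold, and, chosen after their values were seen, runs and members where both other marks were lower. Scripts (python 3.11.15, pandas 2.3.3, scipy 1.17.1) were tested on simulated data. No sequence is printed, as no genome was used.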

Additional observations from a re-analysis of the deposited data

Results flagged for a closer look

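The median log2 change of the 466 H3K27Ac regions over members was 0.025 at 9 hpi and -0.22 at 18 hpi, on opposite sides of 0. The difference between the times was not tested, and both values share 1 control library. Centred on all H3K27Ac regions, both lay below 0.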

How the results depend on the processing

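The number of regions raised at both times was 785, and 360 with a pseudocount of 5, 1624 on the maximum pileup, 1255 at a threshold of 0.3 and 336 at 0.6; with a pseudocount of 0.5, no filter on low values, the 50th percentile, centring or no length limit it was 560 to 1029. The share near a gene start was 47.3% within 5000 bp and 41.3% for regions that cover one, which are wider definitions. The H3K27Ac median at 9 hpi was -0.20 after centring, a turn of sign, and 0.26 on the maximum pileup; at 18 hpi it was -0.066 after centring and -0.35 on the maximum pileup. Its distance to the other regions at 9 hpi was -0.31, and -0.24 with an overlap of at least 50% of the region. H3K27Ac regions lower at both times were 23.2% over members against 16.1% over the other regions. With a pseudocount of 5 they were 17.4% against 12.7%, and after centring 27.5% against 18.5%. On the maximum pileup they were 13.9% against 12.2%, so the shares lay close on that measure. The H3K4me3 median at 9 hpi was -0.19 after centring; on the maximum pileup it was -0.37 at 18 hpi, where the distance to the other regions was -0.24, against -0.17. The causes were not tested. The distance to other regions was below 0 for both marks and times under the 6 alternatives that can change it (centring cannot), among them members outside runs and members at 0.6, both chosen after seeing the data. Counts of members with an H3K27Ac or H3K4me3 interval stayed within 1.5 times when 50% of the interval had to overlap. Of 150 changes at 75 named members, 48 fell below 0.4 with a pseudocount of 5 and 21 on the maximum pileup, among them pcdh20 at 18 hpi with -0.12. No paired analysis was possible because each mark and time had 1 library, and for the same reason no replicate could be left out. Depth is unknown.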
